A study of Mus musculus with 8 samples.

Results

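The insulin-like growth factor (IGF) system is described here in neural stem cells (NSCs) that had been irradiated or not. The genes are the ligands Igf1 and Igf2, the receptors Igf1r and Igf2r, and the binding proteins Igfbp2, Igfbp3, Igfbp4, Igfbp5, Igfbp6 and Igfbp7. Every probe set of the array whose annotation carries exactly 1 gene symbol, that of one of these genes, was taken, which gave 28 of 45101 probe sets for the 10 genes. A probe set is a group of short probes read together as 1 value, and the probe sets of a gene are given apart because those of Igfbp7 disagree.

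Murine NSCs derived from embryonic stem (ES) cells were grown in a serum-free medium with EGF, FGF2 and N2, a supplement that contains insulin, so that both groups received insulin from outside. The irr group was taken at day 7 after 10 Gy of X-rays (irr), and the other group was not irradiated (non-irr). RNA of 4 cultures per group was hybridized to Affymetrix whole-genome mouse arrays, 1 array per culture. The NSCs of the study came mostly from the ES line E14Tg2a, but neither labels nor methods say whether this holds for the cultures on the arrays, and with whole cultures, fewer cells of a kind and less RNA per cell cannot be told apart.

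IGF1 and IGF2 are secreted growth factors that act through IGF1R, a receptor tyrosine kinase that passes the signal on to PI3K, AKT and mTOR and restrains the FoxO transcription factors. IGF2R does not signal in this way. It is also the cation-independent mannose 6-phosphate receptor, which takes IGF2 up for breakdown and carries newly made enzymes to the lysosome. The binding proteins IGFBP2 to IGFBP6 hold the ligands with high affinity outside the cell, lengthen their life and limit or deliver them to the receptor, whereas IGFBP7 is a secreted relative that binds IGFs weakly. In the brain IGF signaling is known for the growth and survival of neural progenitors.

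Of the 10 genes, Igf2r, Igfbp4 and Igfbp7 had probe sets that changed at least 2-fold, and the stretch just before the start of each is shown with the short motifs found in it. The sequences are those of RefSeq (mouse build GRCm38.p6), read 5′ to 3′ on the strand of the gene. For Igf2r (minus strand, chr17:12769706-12769806) the capitals mark CACGTG, the E-box. For Igfbp4 (plus strand, chr11:99041184-99041243) they mark TATAAA, the TATA box. For Igfbp7 (minus strand, chr5:77408046-77408165) they mark GGGCGG and its reverse complement CCGCCC, the GC box.
Igf2r: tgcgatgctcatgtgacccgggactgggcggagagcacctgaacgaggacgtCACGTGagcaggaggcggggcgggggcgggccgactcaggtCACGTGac
Igfbp4: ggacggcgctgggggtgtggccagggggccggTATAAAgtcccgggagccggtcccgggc
Igfbp7: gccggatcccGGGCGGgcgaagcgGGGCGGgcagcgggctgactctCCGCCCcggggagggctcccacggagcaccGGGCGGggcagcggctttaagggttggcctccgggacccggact
The motifs were searched on both strands of all 32851 promoter windows of 300 bases, 14 of which belong to the 10 genes. CACGTG was found in 7.15% of all windows, and among the IGF genes in those of Igf2r and Igfbp2. In Igf2r it begins 48 and 7 bases before the start. The second match lies inside the longer CLEAR element, a palindrome known from lysosomal genes, which was found in 107 windows (0.326%). TATAAA was found in 13.6% of windows, and begins 28 bases before the start in Igfbp4. In Igfbp6 it was met on the other strand. GGGCGG was found in 35.7% of windows, with 4 matches in Igfbp7, 3 each in Igf2, Igf2r and Igfbp2, and 2 in Igf1r. The decamer bound by p53 was found in 8.36% of windows, and among these genes only in Igf2. Such matches describe the letters of these windows.

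After the RMA normalization the 8 arrays had medians between 6.21 and 6.24 on the log2 scale, with 19849 to 20059 probe sets over an intensity of 100 each. The normalization makes the arrays alike in this, so these figures do not measure array quality. Markers of NSCs were present, with 8 of 8 past the intensity of 100, of which 3 were higher and 2 lower. Their summed intensity was 58200 to 61800 in irr NSCs, against 53300 to 55300 in non-irr NSCs. Such sums add different probe sets, so the brightest weigh most and a sum is not the level of each marker. By quantitative PCR, the paper reports lower Nestin, Sox2 and Pax6 mRNA after irradiation, and also lower Olig2, Sox9, Musashi-1 and Vimentin. All of these are in this list of NSC markers. The 9 astrocyte markers summed to 36300 to 39300 in irr NSCs and to 19500 to 20600 in non-irr NSCs, and 7 of them were higher and 2 lower. Of the mesenchymal and pericyte markers, 4 of 8 (Col3a1, Lum, Dcn and Acta2) were past the intensity, 3 of them higher and 1 lower. Dcn, among the higher, was past it only on irr arrays. The 8 markers summed to 3010 to 3160 in irr NSCs and 1700 to 1790 in non-irr NSCs. Pdgfrb, Col1a1, Col1a2 and Rgs5 stayed under that intensity on every array. Of the 7 markers of microglia and macrophages, 2 were past it and 1 of these was higher, with sums of 452 to 510 in irr NSCs and 395 to 441 in non-irr NSCs, while Cx3cr1, Tyrobp, Itgam, Ptprc and Aif1 stayed under it. Of the 5 endothelial markers 1 was past it and lower, with sums of 245 to 255 in irr NSCs and 266 to 318 in non-irr NSCs, while Cldn5, Tek, Cdh5 and Pecam1 stayed under it. Of the 5 neuron markers 4 were past it, 0 of them higher and 2 lower, with sums of 7460 to 8000 in irr NSCs and 6610 to 7590 in non-irr NSCs. Past it were also 2 oligodendrocyte markers and 1 pluripotent marker, with 0 called in either list. The part of these cell types in the changes of the IGF genes was not tested. The distance between the 3′ and 5′ probe sets of control transcripts, a sign of RNA or labeling quality, was wider in irr NSCs for 3 of 4 controls. For actin it was 0.51 ± 0.07 in irr NSCs and 0.26 ± 0.03 in non-irr NSCs (log2, SD, n = 4 each, adjusted p = 0.0381 over 4 controls, exact permutation test, two-sided). For the transferrin receptor it was 0.85 ± 0.24 and 0.35 ± 0.21 in irr and non-irr NSCs (the same p), for pyruvate carboxylase 1.06 ± 0.07 and 0.52 ± 0.11 (the same p), and for Gapdh -0.06 ± 0.03 and -0.08 ± 0.04 (p = 0.714 by the same exact test). The smallest p this design of 4 against 4 arrays allows is 0.029.

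Most of the IGF system that the arrays could measure was higher in irr NSCs. Of the 28 probe sets, 20 had an intensity over 100 (6.64 on the log2 scale) on at least 1 array and entered the test. They cover 8 genes, since neither Igf1 nor Igfbp6 reached that intensity. In limma (adjusted p under 0.05, Benjamini-Hochberg over 21919 probe sets), 18 of the 20 were higher, 1 was lower and 1 was not called, where over all probe sets tested 38.0% were higher and 37.1% lower. At least 2-fold higher were 8, from Igf2r, Igfbp4 and Igfbp7, against 8.47% of all probe sets, and 0 were at least 2-fold lower (0 also at an unadjusted p under 0.05), against 5.98%. The 20 probe sets had a median log2 fold change of 0.75, while that of all probe sets was -0.0083. In 17 of the higher ones every irr array lay above every non-irr array, which held for 35.7% of all probe sets, and in the lower one every irr array lay below, as in 34.0%. Read by the brightest probe set of each gene, 8 of 8 genes were higher, against 40.2% of all genes, and 2 of them at least 2-fold, against 8.9%. For Igfbp7, however, the probe set that is brightest over all 8 arrays is so through its irr values, and read by the probe set brightest in non-irr NSCs 7 of 8 genes were higher, against 39.6% of all genes, and 1 at least 2-fold. When the arrays were centred on 7 reference genes, the median of all probe sets moved to 0.15, and the share of higher ones among all calls went to 66.0%, against 50.6% as deposited. Under that centring the same 18 stayed higher, the lower one stayed lower, and the one without a call was called higher. Since the centring raised every change by the same amount, it could hardly take the call from the 18.

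**Figure D1:**
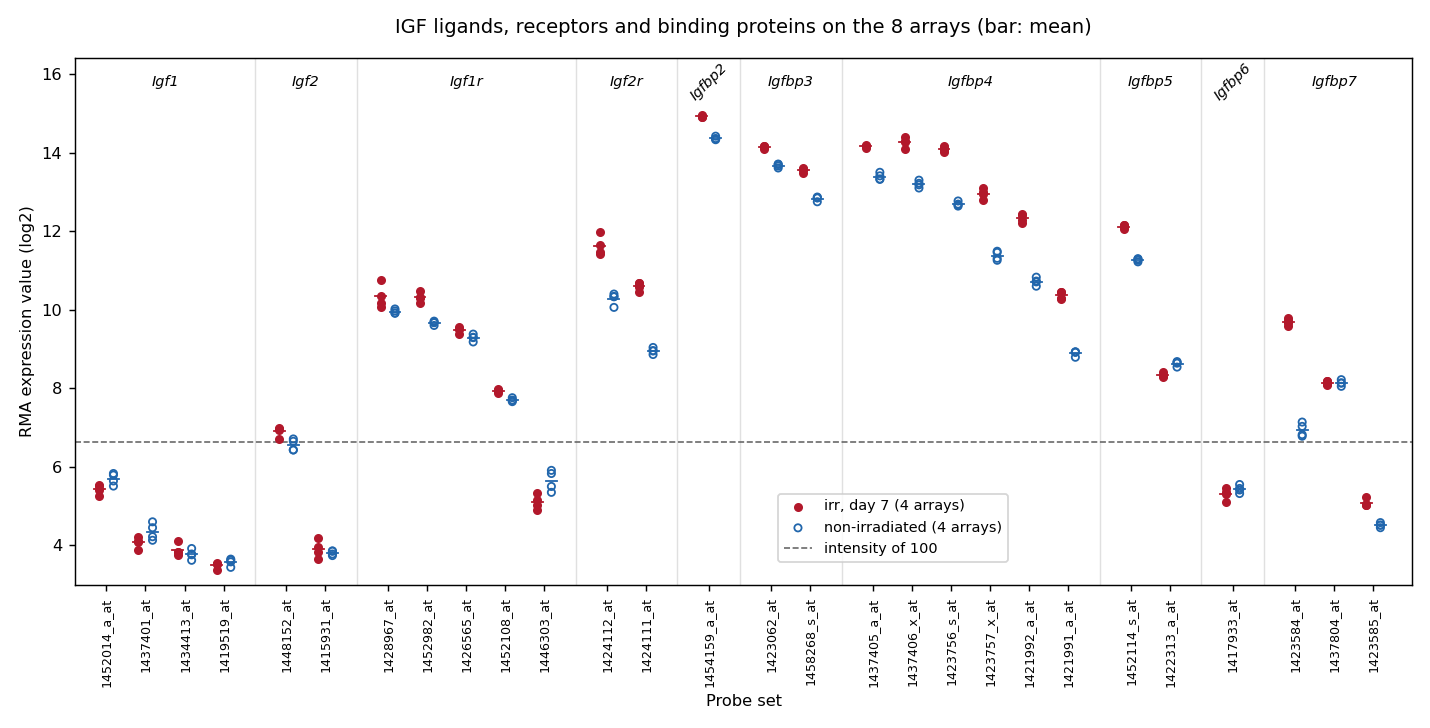
RMA value (log2, y axis) of each of the 28 probe sets (x axis, by gene) on the 4 irr arrays (filled, left) and the 4 non-irr arrays (open, right), with short bars for the means and a dashed line at an intensity of 100. The 4 probe sets of Igf1 and the single one of Igfbp6 lie below the line in both groups, whereas the groups stand apart for Igf2r, Igfbp2, Igfbp3, Igfbp4 and the first probe set of Igfbp7.

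Among the ligands, Igf2 was slightly higher in irr NSCs and Igf1 was not measurable. Igf2, a growth factor of fetal tissue that is expressed from the paternal allele, was read by 1448152_at at 6.72, 6.98, 6.95 and 6.96 in irr NSCs and at 6.43, 6.71, 6.43 and 6.65 in non-irr NSCs. The groups did not overlap, but irr replicate 1 stood only just above the highest non-irr array, and only 2 of the 4 non-irr arrays were over the intensity of 100. The difference was 0.35 (SE 0.08, 1.27-fold, limma adjusted p = 0.0042). Its other probe set, 1415931_at, stayed under the intensity of 100 on all arrays with overlapping groups.

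Igf1, the ligand that the liver makes for the circulation, was read by 4 probe sets that all stayed under the intensity of 100. The brightest, 1452014_a_at, read 5.51, 5.25, 5.53 and 5.42 in irr NSCs and 5.83, 5.79, 5.51 and 5.64 in non-irr NSCs. The groups overlapped, and the other 3 probe sets overlapped too, at 3.37 to 4.21 in irr NSCs and at 3.44 to 4.60 in non-irr NSCs. At such signal an array does not tell a low transcript from none.

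Both receptors were higher, Igf2r by far more than Igf1r. Igf2r was read at 10.46, 10.68, 10.58 and 10.67 by 1424111_at in irr NSCs, and at 8.86, 8.96, 8.95 and 9.04 in non-irr NSCs. The groups lay far apart with little spread in either, and the difference was 1.65 (SE 0.06, 3.13-fold, limma adjusted p = 1.2e-08). The other probe set, 1424112_at, read 11.98, 11.65, 11.47 and 11.42 in irr NSCs and 10.40, 10.34, 10.33 and 10.06 in non-irr NSCs, a difference of 1.35 (SE 0.12, 2.55-fold, limma adjusted p = 4.7e-06). The spread among the irr arrays was wider here, but no array crossed over. The changes read by these 2 probe sets differed by -0.30, which the exact permutation test did not separate (p = 0.229, adjusted p = 0.273 over 25 pairs of probe sets).

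For Igf1r, the signaling receptor, the difference was small and depended on the probe set. With 1452982_at the values were 10.48, 10.31, 10.18 and 10.32 in irr NSCs and 9.67, 9.68, 9.71 and 9.60 in non-irr NSCs. Here the groups stood well apart, by 0.66 (SE 0.06, 1.58-fold, limma adjusted p = 7.6e-06). With 1428967_at they were 10.77, 10.35, 10.07 and 10.16 in irr NSCs and 9.97, 10.02, 9.91 and 9.92 in non-irr NSCs. The difference of 0.39 (SE 0.13, limma adjusted p = 0.022) leaned on irr replicate 1, being 0.24 without it (adjusted p = 0.012), and it missed the threshold without non-irr replicate 3 (0.37, limma adjusted p = 0.051). 1452108_at read 7.99, 7.92, 7.96 and 7.87 in irr NSCs and 7.69, 7.70, 7.66 and 7.76 in non-irr NSCs, a difference of 0.23 (SE 0.05, limma adjusted p = 0.0013). 1426565_at read 9.37, 9.52, 9.51 and 9.55 in irr NSCs and 9.30, 9.38, 9.18 and 9.29 in non-irr NSCs, a difference of 0.20 (SE 0.06, limma adjusted p = 0.012) with groups that overlapped. Of the 6 pairs among these 4 probe sets, 2 differed in their change, those of 1452982_at with 1426565_at (0.46) and with 1452108_at (0.43), both at an adjusted p of 0.0447 by the exact permutation test. The fifth probe set, 1446303_at, was under the intensity of 100 on all arrays and lay the other way, with 5.04, 5.16, 5.33 and 4.90 in irr NSCs and 5.91, 5.35, 5.50 and 5.83 in non-irr NSCs.

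The irr arrays were not alike for 1 probe set of each receptor. In 1428967_at of Igf1r, irr replicates 1 and 2 averaged 0.44 above irr replicates 3 and 4, and in 1424112_at of Igf2r 0.37 above them, while for the other Igf2r probe set, 1424111_at, the same difference was -0.05, and for the other 3 Igf1r probe sets past the filter it was 0.14 (1452982_at), -0.09 (1426565_at) and 0.05 (1452108_at). Over the probe sets past the intensity filter that do not belong to the receptors it lay between -0.13 and 0.07. The first component of the residuals of all probe sets, with 45.6% of their variance, also lay on one side of 0 in irr replicates 1 and 2 and on the other in irr replicates 3 and 4, and its part in these values was not tested. Without irr replicates 1 and 2 the difference between irr and non-irr NSCs was 0.16 for 1428967_at (limma adjusted p = 0.036) and 1.16 for 1424112_at (limma adjusted p = 1.7e-05). Without irr replicates 3 and 4 it was 0.61 and 1.53, and 1426565_at of Igf1r lost its call (0.15, limma adjusted p = 0.1).

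**Figure D2:**
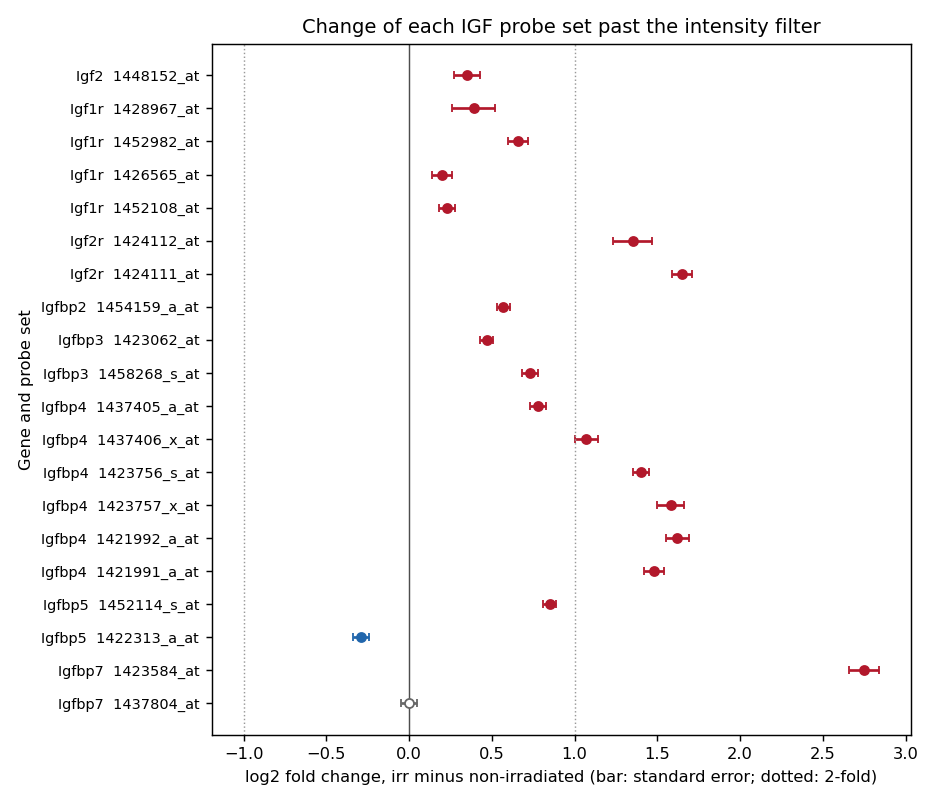
log2 fold change of irr over non-irr NSCs (x axis, with the standard error of limma as bars) for the 20 probe sets past the intensity filter (y axis, ligand at the top, then receptors and binding proteins). Red marks the 18 higher, blue the lower one (Igfbp5, -0.29) and the open symbol the one not called (Igfbp7, 0.00), and dotted lines mark a 2-fold change.

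Of the 13 probe sets of binding proteins past the filter, 11 were higher in irr NSCs, where 38.0% of all probe sets were. All 6 of Igfbp4 are among the 11, and probe sets of the same gene are not independent readings. Igfbp7 had the probe set with the largest change, and 5 of the 6 probe sets of Igfbp4 changed at least 2-fold, whereas those of Igfbp3 and Igfbp5 changed less. By its brightest probe set over the 8 arrays Igfbp4 (0.78) was close to Igfbp5 (0.85), and these readings were not tested against each other. Igfbp6, which prefers IGF2 as its ligand, stayed under the intensity of 100 with 5.45, 5.31, 5.11 and 5.36 in irr NSCs and 5.55, 5.45, 5.32 and 5.41 in non-irr NSCs, so that the groups overlapped.

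Igfbp2, a binding protein that neural progenitors and astrocytes release in quantity, was read by 1454159_a_at at 14.92, 14.95, 14.92 and 14.94 in irr NSCs and at 14.36, 14.33, 14.35 and 14.42 in non-irr NSCs. The groups did not overlap, and the difference as read was 0.57 (SE 0.04, limma adjusted p = 9.0e-07). The irr arrays lay just under 14.98, the highest value in the whole table, so the size of this difference is not set against those of the other genes, and the part of the ceiling in it was not tested.

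Igfbp3, the main carrier of IGFs in blood, was read by 1458268_s_at at 13.56, 13.58, 13.48 and 13.62 in irr NSCs and at 12.87, 12.85, 12.75 and 12.85 in non-irr NSCs. The difference was 0.73 (SE 0.05, 1.66-fold, limma adjusted p = 5.6e-07). Its brighter probe set, 1423062_at, read 14.09, 14.16, 14.16 and 14.14 in irr NSCs and 13.61, 13.70, 13.66 and 13.71 in non-irr NSCs. Its change was smaller, 0.47 (1.38-fold, limma adjusted p = 5.4e-06), and the 2 changes differed by -0.26 (exact permutation test, adjusted p = 0.0447).

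Igfbp4, which holds IGFs away from the receptor until a protease cuts it, was higher on all 6 of its probe sets. With 1421992_a_at the values were 12.22, 12.41, 12.29 and 12.43 in irr NSCs and 10.60, 10.73, 10.71 and 10.83 in non-irr NSCs. The groups were far apart, by 1.62 (SE 0.07, 3.07-fold, limma adjusted p = 1.7e-08). With 1423756_s_at they were 14.01, 14.14, 14.07 and 14.17 in irr NSCs and 12.64, 12.69, 12.67 and 12.77 in non-irr NSCs, a difference of 1.40 (limma adjusted p = 9.7e-09). With 1437405_a_at, the brightest of the 6 in non-irr NSCs, they were 14.11, 14.20, 14.17 and 14.18 in irr NSCs and 13.32, 13.33, 13.41 and 13.50 in non-irr NSCs, a difference of only 0.78 (limma adjusted p = 5.8e-07). The other 3 read differences of 1.07 (1437406_x_at), 1.58 (1423757_x_at) and 1.48 (1421991_a_at). Identifiers with x or s mark probe sets that may also bind other transcripts.

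Over the 5 Igfbp4 probe sets brightest in non-irr NSCs the change was smaller the brighter the probe set, while the dimmest read 1.48, and 11 of its 15 pairs of probe sets differed in their change (exact permutation test, adjusted p = 0.0447 each, from the smallest p that 4 against 4 arrays allow). The largest of these differences, -0.84, was that of 1437405_a_at against 1421992_a_at, whose distance was 1.83 ± 0.07 in irr NSCs and 2.67 ± 0.05 in non-irr NSCs (SD, n = 4 each). Among other genes with at least 2 probe sets called higher, the brightest one changed less in 48 of 67 genes (71.6%) where its mean was over 13, and in 695 of 1624 (42.8%) where it was under 13. The top of the array's range was not tested as a cause. Over all 6 genes with several probe sets past the filter, 16 of 25 pairs differed in their change, all at the smallest p of the design, so that they pass the adjustment only together. Pairs of 1 gene share probe sets and are not independent, and without the Igfbp7 pair, whose disagreement was known beforehand, 15 of 24 passed (exact permutation test, adjusted p = 0.0458). Over 13409 pairs of other genes the groups did not overlap in 45.1%.

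**Figure D3:**
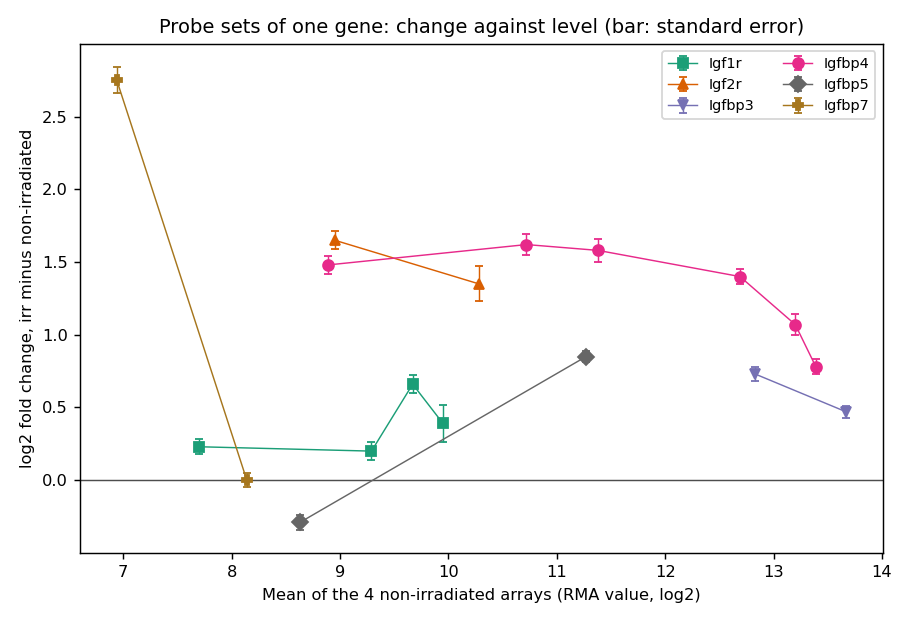
log2 fold change of irr over non-irr NSCs (y axis, with the standard error) against the mean of the 4 non-irr arrays (x axis, log2) for the probe sets of the 6 genes with several past the filter, joined by gene. The 5 brightest Igfbp4 points fall toward the right, from 1.62 to 0.78, and the pairs of Igfbp7 (2.75 and 0.00) and Igfbp5 (0.85 and -0.29) disagree.

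Igfbp5, a binding protein that also attaches to the extracellular matrix, was read in opposite directions by its 2 probe sets. The brighter, 1452114_s_at, read 12.11, 12.15, 12.05 and 12.17 in irr NSCs and 11.22, 11.30, 11.26 and 11.29 in non-irr NSCs, a difference of 0.85 (SE 0.04, 1.8-fold, limma adjusted p = 9.6e-08). The other, 1422313_a_at, was lower, with 8.41, 8.34, 8.31 and 8.29 in irr NSCs and 8.66, 8.68, 8.54 and 8.64 in non-irr NSCs (-0.29, SE 0.05, limma adjusted p = 4.1e-04). In both the groups did not overlap, and their changes differed by 1.14 (exact permutation test, adjusted p = 0.0447). Centred on reference genes the lower one was at -0.13 (limma adjusted p = 0.04). The positions of the probes in the transcript were not used here, so the 2 readings could not be set to parts of the gene.

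Igfbp7, which is secreted by many arrested cells and binds IGFs only weakly, gave the largest difference. With 1423584_at the values were 9.58, 9.74, 9.79 and 9.67 in irr NSCs and 7.14, 7.03, 6.82 and 6.78 in non-irr NSCs. The lowest irr array lay far above the highest non-irr array, and the difference was 2.75 (SE 0.09, 6.73-fold, limma adjusted p = 3.3e-09). With 1437804_at they were 8.09, 8.12, 8.18 and 8.18 in irr NSCs and 8.22, 8.05, 8.14 and 8.13 in non-irr NSCs, groups that overlapped fully with a difference of 0.00 (SE 0.05, limma adjusted p = 0.96). Centred on reference genes, however, it was 0.16 (limma adjusted p = 0.013). The third, 1423585_at, was under the intensity of 100 on all arrays, at 5.05, 5.02, 5.24 and 5.02 in irr NSCs and 4.58, 4.51, 4.45 and 4.52 in non-irr NSCs, without overlap and in the direction of the first. The disagreement of the 2 probe sets past the filter was known beforehand, and its size was 2.75 (distance of 1.55 ± 0.07 in irr NSCs and -1.20 ± 0.17 in non-irr NSCs). The wider distance between 3′ and 5′ control probe sets in irr NSCs, at most 0.54 for the 4 controls, stands beside these disagreements, and its part in them was not tested.

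Igfbp7 had the largest rise by the brightest probe set of each gene, and the genes whose values over the 8 arrays ran most like those of its 1423584_at were Gpr108 (Pearson r = 0.9997, log2 fold change 0.62), Pdgfa (0.9995, 1.44), the ligand of the PDGF receptor α, and Dbp (0.9991, 1.91), a transcription factor of the circadian clock. With 2 groups set so far apart, 642 of 11364 genes reached an r over 0.99, and no p is given for such a likeness.

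Around the IGF genes, the growth hormone receptor and a protease of binding proteins were among the higher genes. Of the 15 genes of the IGF axis outside the cell, 8 were past the filter, and 4 of these were higher, 3 lower and 1 not called, where 40.2% of all genes were higher and 37.1% lower. Their median log2 fold change was 0.37, against 0.0069 for all genes, and only 1 of them was lower when the arrays were centred on reference genes. Ghr, the growth hormone receptor that drives Igf1 in liver, read 9.68, 9.78, 9.46 and 9.70 in irr NSCs and 7.28, 7.51, 7.49 and 7.36 in non-irr NSCs, a difference of 2.24 (limma adjusted p = 7.3e-09), and its other probe set 1.09. Htra1, a secreted protease that cuts IGFBPs, read 12.90, 12.94, 12.96 and 13.01 in irr NSCs and 11.28, 11.16, 11.19 and 11.28 in non-irr NSCs, a difference of 1.72 (limma adjusted p = 1.7e-09). Both sat far outside the spread between arrays, whereas Adam12, another such protease, was higher by 0.89 and the insulin receptor Insr by 0.62 (limma adjusted p = 2.1e-07 and 5.9e-07). Of the stanniocalcins, which inhibit the protease PAPP-A, Stc1 was lower with a log2 fold change of -0.93, and Stc2 with one of -0.31 (limma adjusted p = 4.8e-07 and 0.0022). Ins2, an insulin gene, was only just past the threshold (-0.18, limma adjusted p = 0.044) and lost its call in 12 of 19 alternatives, the 1.5-fold test aside, with 6 of 8 single arrays left out among them. Pappa and Pappa2, proteases of binding proteins, stayed under the intensity of 100, as did Igfbp1, Igfbpl1, Insrr and Adam28.

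Of 34 genes of insulin and IGF receptor signaling, 28 were past the filter, and 19 were higher, 5 lower (3 when centred on reference genes) and 4 not called (median 0.34). At least 2-fold higher were 4 genes measured in both groups. Among all genes 40.2% were higher, 37.1% lower and 8.9% higher at least 2-fold. Pik3r3 was higher by 1.49 and Pik3ca by 1.15, a regulatory and a catalytic subunit of PI3K (limma adjusted p = 2.9e-09 and 1.5e-05). The adaptor Irs1, which docks to the insulin receptor and IGF1R, read 12.01, 11.89, 11.86 and 11.94 in irr NSCs and 10.65, 10.67, 10.51 and 10.67 in non-irr NSCs, without overlap and with a difference of 1.30 (limma adjusted p = 2.1e-08). Rictor, a subunit of mTOR complex 2, was higher by 1.02 (limma adjusted p = 7.3e-06). Socs2, an inhibitor of cytokine and growth hormone signals, is counted as higher but passed the filter only through its irr arrays, and no fold is given for it. Pik3cb, counted as lower, passed only through its non-irr arrays. With an intensity over 100 on at least 4 arrays, a filter that leaves both out, 18 of 26 genes were higher and 4 lower.

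No gene of the list of FoxO factors and their usual targets was lower by limma, 13 of 17 past the filter were higher and 4 were not called (median 0.88), with 7 higher at least 2-fold, where the shares of all genes were again 40.2% higher, 37.1% lower and 8.9% higher at least 2-fold. The count of lower genes was also 0 at an unadjusted p under 0.05, and it was 1 without irr replicate 1. Txnip, an inhibitor of thioredoxin and of glucose uptake, read 11.56, 11.68, 11.86 and 11.84 in irr NSCs and 9.36, 9.27, 9.08 and 9.38 in non-irr NSCs, a difference of 2.47 (limma adjusted p = 7.3e-09). Gabarapl1 of autophagy was higher by 1.71, Foxo3 by 1.63 and Pink1, a kinase of mitochondrial quality control, by 1.59 (limma adjusted p = 1.5e-08, 1.3e-08 and 1.1e-09). Many of these targets also answer to other factors, and FoxO activity was not measured.

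Igf2 and Igf2r are imprinted, and of 18 imprinted growth genes 9 were past the filter, of which 6 were higher, 2 lower (1 when centred on reference genes) and 1 not called (median 0.42), against 40.2% higher and 37.1% lower among all genes. Airn, the noncoding RNA that starts inside Igf2r and runs antisense to it, read 9.16, 9.17, 9.27 and 9.05 in irr NSCs and 6.56, 6.79, 7.0 and 6.40 in non-irr NSCs. The difference was 2.48 (limma adjusted p = 4.4e-08), and its 3 probe sets past the filter read 0.79 to 2.48. The non-irr values lay near the intensity of 100 (6.64), on both sides of it. Because the genes overlap, another probe set annotated to both Airn and Igf2r was left out. Mest was the other way, at 11.55, 11.70, 11.64 and 11.65 in irr NSCs and 13.51, 13.60, 13.50 and 13.62 in non-irr NSCs (-1.92, limma adjusted p = 1.4e-09). Dcn, a matrix proteoglycan counted among the 6 higher, was under the intensity of 100 on all non-irr arrays. It entered the test only through its irr arrays, so its rise is given as a bound of at least 1.06-fold without a p. With an intensity over 100 on at least 4 arrays, a filter that leaves Dcn out, 5 of 8 imprinted genes were higher. Sgce was higher by 0.72 (limma adjusted p = 1.6e-07). Of the list of RNA-binding proteins of Igf2 mRNA and their regulators, Hmga2 was lower (-0.95, limma adjusted p = 1.7e-06) and Igf2bp3 higher by 0.19 (limma adjusted p = 0.013, not called after a further quantile normalization), while Igf2bp1, Lin28a and Lin28b stayed under the intensity of 100. The 7 reference genes past the filter had 1 higher, 3 lower and 3 not called, from -0.66 for Pgk1 to 0.20 for Sdha.

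**Figure D4:**
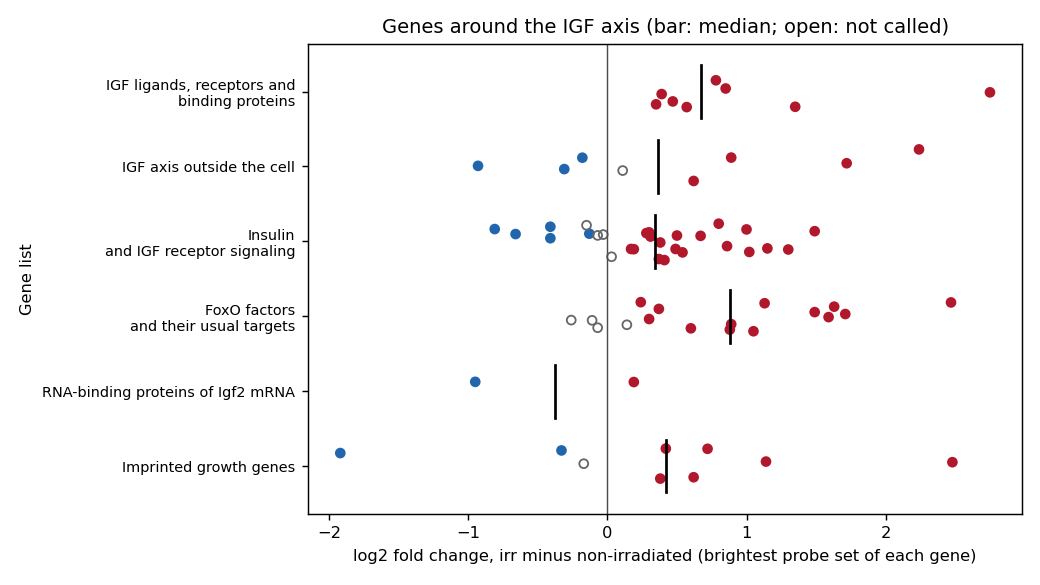
log2 fold change of irr over non-irr NSCs (x axis) for each gene past the filter, read by its brightest probe set, of the IGF genes and of 5 lists of genes around them (y axis), with a bar for the median of each list. Red marks genes called higher, blue lower and open symbols not called, and the FoxO list holds no gene called lower.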

How the data were processed

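Total RNA of 4 irr and 4 non-irr NSC cultures was hybridized to 1 array each. Per the methods, the authors read the arrays with GCOS and normalized them with RMA, and the log2 values used here are the RMA values as deposited. They hold 45101 probe sets between 2.48 and 14.98, and detection calls were not used here.

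Probe sets were named from the platform annotation, with 34754 symbols updated by Entrez number. 34958 carry 1 symbol, 932 several and 9211 none, and only those with 1 were used by gene. After 64 control probe sets were left out, those that passed 100 in intensity on 1 or more arrays entered the fit (21919 probe sets, 11372 genes), run with limma 3.58.1 in R 4.3.3 (two-sided, Benjamini-Hochberg, adjusted p under 0.05). For lists each gene is read by its probe set of highest mean over the 8 arrays. Where a group lies under the intensity of 100 on all its arrays, a fold is a lower bound, the brighter mean over 100. Levels of different probe sets are not comparable as amounts of RNA. Differences between probe sets of a gene were put to an exact permutation test over arrays (scipy 1.17.1), adjusted over 25 pairs. All IGF genes were named, and of each list the 4 called genes with the largest change and every called gene of the IGF axis outside the cell. The number of arrays limits the precision. The procedure was tested on simulated data.

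The IGF genes, lists and tests were chosen with earlier results of these data known. Alternatives were other intensity filters, centring, a further quantile normalization, limma with trend, weights or a replicate block, a 1.5-fold test, plain identifiers, means of probe sets and leaving out arrays. Leaving out irr replicates in pairs and reading genes by their brightest non-irr probe set were added after seeing the data. Promoters came from RefSeq, and figures were drawn with matplotlib 3.10.9.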

Additional observations from a re-analysis of the deposited data

Results flagged for a closer look

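Of 106 groups of 4 arrays examined, 8 held an array farther from the other 3 than the limit of Dixon's test, a limit that chance passes in about 1 of 20 groups. Igf1 1419519_at read 3.37 on irr replicate 3, against 3.52 to 3.55 on the other irr arrays, all under the intensity of 100. Igf2 1448152_at read 6.72 on irr replicate 1, against 6.95 to 6.98. Igfbp7 1423585_at read 5.24 on irr replicate 3, against 5.02 to 5.05. Stc1 read 7.60 on irr replicate 1, against 7.41 to 7.43.

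Among the non-irr arrays, Igfbp3 1458268_s_at read 12.75 on replicate 3, against 12.85 to 12.87 on the others. Irs1 also read low on replicate 3, at 10.51 against 10.65 to 10.67. Igfbp4 1421991_a_at read 8.79 on replicate 1, against 8.92 to 8.93, and Actb read 14.75 on replicate 1, against 14.80 on the other 3.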

How the results depend on the processing

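Of 409 values of IGF probe sets under 21 settings, 398 kept their side of the threshold, 10 lost their call and 1 gained one, and no called value changed direction. Igfbp7 1437804_at, at 0.00 and not called, took both signs, from -0.08 to 0.16. Of 232 differences of probe set pairs and control gaps with single arrays left out, 2 near 0 changed sign: Igf1r 1426565_at minus 1452108_at (0.03 without irr replicate 1, against -0.03) and the Gapdh gap (-0.01 without non-irr replicate 3, against 0.01). IGF probe sets called higher numbered 17 to 18 with single arrays left out, and 1 was lower throughout. They were 11 higher and 0 lower in a test against a 1.5-fold change. With plain identifiers only, 9 of 10 were higher and 0 lower, but every probe set of Igfbp2, Igfbp4 and Igfbp5 was left out. Without an intensity filter 3 IGF probe sets were lower. The lists moved as follows. Centred on reference genes, 1 gene of the IGF axis outside the cell was lower, 3 of receptor signaling and 1 imprinted gene. In the 1.5-fold test the IGF axis had 1 lower, receptor signaling 6 higher and 1 lower, FoxO 8 higher, imprinted genes 3 higher and 1 lower, and the RNA-binding proteins 0 higher. The RNA-binding proteins had 2 lower without a filter, and 0 higher after a further quantile normalization or without irr replicates 3 and 4. Receptor signaling had 3 lower without irr replicates 3 and 4. Reading each gene by its brightest probe set in non-irr NSCs, chosen after seeing the data, left the list counts as they were. FoxO had 1 lower after quantile normalization, with array weights, with the replicate block and without irr replicates 1 and 2, 2 when the probe sets of a gene were averaged, and 0 to 1 with single arrays left out. The causes were not tested.

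Same-numbered arrays had residual correlations of 0.0433, 0.376, -0.207 and 0.509. These were not compared with those of different-numbered arrays, so whether the numbers pair the cultures was not tested. With the replicate number as a block 18 IGF probe sets were higher and 1 lower, and apart from the FoxO count no count moved by over 1.5 times. Signal limits Igf1, Igfbp6 and the near-ceiling Igfbp2.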
